A study of Mus musculus with 18 samples.

Results

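The 10 genes described here encode secreted and surface proteins of inflammatory signalling in muscle, together with 1 brake on the pathway that drives several of them. They are Il6 and Lif, Csf1, the chemokines Ccl2, Ccl7, Cxcl1, Cxcl5 and Cxcl12, the adhesion molecule Vcam1 and the NF-kB inhibitor Tnfaip3. Each was taken as the probe set whose single gene symbol was the gene's own, the brightest by its mean over 18 arrays where a gene had several, and each of the 10 had 1 such probe set among the 22180 genes tested. Il6 and Lif belong to the cytokine family that signals through the shared receptor chain gp130, encoded by Il6st, and are counted among the myokines, factors that muscle cells release. Chemokines draw leukocytes or precursor cells along a gradient: Ccl2 and Ccl7 act mainly on monocytes, Cxcl1 and Cxcl5 on neutrophils through the receptor Cxcr2, and Cxcl12 on cells that carry Cxcr4. NF-kB is a dimeric transcription factor held in the cytoplasm by inhibitors of the IkB family until upstream kinases mark these for destruction, and Tnfaip3 (A20) is a ubiquitin-editing enzyme that NF-kB itself induces and that damps its activation.

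Expression was measured in C2C12 cells, mouse myoblasts of an established line that form multinucleate myotubes in low serum. The 3 groups of 6 arrays were cells given Nup210 shRNA, Mef2c shRNA or control shRNA, which the sample titles call a scramble shRNA. Nup210 shRNA was directed at a subunit of the nuclear pore complex, and Mef2c shRNA at a transcription factor of muscle differentiation. In all 3 groups growth was in 20% fetal bovine serum and differentiation in 2% horse serum. The shRNA came with a lentivirus added 36 h into differentiation, and RNA was taken 48 h after infection. The labels do not say that a group's 6 samples were cultured apart. A p-value therefore sets a difference only against the spread among these samples, and that spread may be technical.

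The values are log2 expression values, and the background guide was a level of 5.47, the 95th percentile over 1394 genes of olfactory and vomeronasal receptors. In the arrays labelled Mef2c shRNA the level of Mef2c averaged 7.91 ± 0.21, against 10.39 ± 0.16 in control arrays (SD, n = 6 each). The probe set of Nup210 was dim and did not separate its own group from control. It averaged 5.65 ± 0.11 in Nup210 shRNA arrays and 5.75 ± 0.093 in control arrays (log2 difference -0.10, limma adjusted p = 0.402). In Mef2c shRNA arrays it averaged 5.88 ± 0.12, and Nup210 shRNA arrays were lower than these (-0.23, adjusted p = 0.0178). Since its own group was not separated from control, each direction given for Nup210 shRNA rests on the labels. All 12 myotube markers lay above background, and their summed linear level ran from 40259 to 43638 in Nup210 shRNA arrays, from 39862 to 43582 in Mef2c shRNA arrays and from 43051 to 45981 in control arrays. Of the 9 myoblast or reserve cell markers 8 lay above background, with sums of 4715 to 5463 in Nup210 shRNA arrays, 4267 to 4940 in Mef2c shRNA arrays and 4581 to 4932 in control arrays. Among other cell types that release or answer these factors, 2 of 10 macrophage markers (Cd68 and Cd14, with Csf1r, Ptprc and Adgre1 at background), 1 of 6 endothelial, 0 of 4 neutrophil, 0 of 3 lymphocyte and 1 of 3 adipocyte markers lay above background. None of these non-muscle markers passed limma's test in any comparison, and 0 to 2 per cell type and comparison had an unadjusted p under 0.05. Earlier results of these data had set Nup210 shRNA arrays 2, 4 and 5 and control arrays 4 and 6 apart, and results are given without them where that ends a call. In RNA from a whole culture, fewer cells of a type and less RNA per cell cannot be told apart.

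The upstream sequences show where 4 of the genes that passed a test in these cells carry, or lack, the 10-base NF-kB consensus. They are the 250 bases before the RefSeq start of each gene, mouse build GRCm38.p6, in the gene's own direction, with matches to the consensus on either strand in capitals. Lif lies at chr11:4257318-4257567 on the plus strand, Cxcl1 at chr5:90890995-90891244 on the plus strand, Tnfaip3 at chr10:19015411-19015660 on the minus strand and Cxcl12 at chr6:117168285-117168534 on the plus strand.
Lif: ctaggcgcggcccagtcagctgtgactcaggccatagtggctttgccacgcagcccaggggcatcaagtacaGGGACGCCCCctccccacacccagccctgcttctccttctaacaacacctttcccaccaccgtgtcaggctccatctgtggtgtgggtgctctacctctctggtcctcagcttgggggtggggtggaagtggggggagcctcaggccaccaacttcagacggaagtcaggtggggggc
Cxcl1: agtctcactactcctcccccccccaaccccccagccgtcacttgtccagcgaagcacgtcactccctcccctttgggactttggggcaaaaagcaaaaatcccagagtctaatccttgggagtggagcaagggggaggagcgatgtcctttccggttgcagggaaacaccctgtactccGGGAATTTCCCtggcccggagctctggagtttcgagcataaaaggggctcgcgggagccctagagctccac
Tnfaip3: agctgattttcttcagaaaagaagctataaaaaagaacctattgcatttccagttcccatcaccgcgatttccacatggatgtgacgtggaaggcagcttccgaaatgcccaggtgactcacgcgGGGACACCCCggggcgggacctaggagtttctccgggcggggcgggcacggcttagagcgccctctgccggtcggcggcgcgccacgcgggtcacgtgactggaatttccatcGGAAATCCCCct
Cxcl12: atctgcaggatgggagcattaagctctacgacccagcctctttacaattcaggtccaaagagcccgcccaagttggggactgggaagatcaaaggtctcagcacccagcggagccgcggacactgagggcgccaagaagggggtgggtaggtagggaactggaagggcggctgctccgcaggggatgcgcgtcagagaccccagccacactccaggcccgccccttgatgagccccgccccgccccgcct
The table of promoter windows, each 300 bases long from 250 before to 50 after a start, held 6 of the 10 genes in 7 windows. Matches were sought only in the 250 bases before each start, and the counts and shares below refer to those bases. The NF-kB consensus occurred in a window of 5 of these genes, namely Lif, Csf1, Il6, Cxcl1 and Tnfaip3, and in 7.25% of all 32851 windows. Cxcl1 carried it 71 to 61 bases before its start, where matches on both strands overlap. Tnfaip3 carried it 125 to 116 and 12 to 3 bases before the start used here, and the window of its other start had none. The MEF2 consensus was found in 0 of the 7 windows and in 2.92% of all windows. A match or its lack describes these letters alone.

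The cytokines come first. Il6 lay below background on all 18 arrays, with a mean of 3.56 that exceeded 58.6% of the receptor genes, so no fold change is given for it. It ran from 3.22 over a median of 3.33 to 3.92 in Nup210 shRNA arrays, from 2.96 over 3.39 to 3.66 in Mef2c shRNA arrays and from 3.27 over 3.89 to 4.20 in control arrays. Il6 was not called in any of the 3 comparisons in the main fit, which has no block for the replicate number. With such a block it passed for Mef2c shRNA against control (limma adjusted p = 0.0297), as it did without control array 5 (0.0182). Its relative Lif was well above background and fell with Nup210 shRNA. Lif ran from 6.33 over a median of 6.79 to 6.97 in Nup210 shRNA arrays, from 6.63 over 6.99 to 7.09 in Mef2c shRNA arrays, and from 7.02 over 7.08 to 7.22 in control arrays. All 6 Nup210 shRNA arrays lay below the lowest control array, a separation that 5.63% of all genes showed in this comparison, whereas the Mef2c shRNA arrays overlapped both other groups. The level of Lif with Nup210 shRNA was 0.785-fold that of control (log2 difference -0.35, SE 0.097, limma adjusted p = 0.0308). With Mef2c shRNA the difference from control was -0.18 (adjusted p = 0.274), and the 2 shRNA groups differed by -0.17 (adjusted p = 0.335), so a difference between the shRNAs was not shown for Lif. Its call ended when any 1 of Nup210 shRNA arrays 2, 4 and 5 and control arrays 3, 4 and 6 was left out (adjusted p from 0.0519 to 0.0702).

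Csf1, the growth factor of macrophages, was not called in the main fit of all 18 arrays. It ran from 9.59 over a median of 9.66 to 9.77 in Nup210 shRNA arrays, from 9.54 over 9.65 to 9.81 in Mef2c shRNA arrays and from 9.75 over 9.82 to 9.87 in control arrays. In both shRNA groups 4 of 6 arrays lay below the lowest control array. The differences from control were -0.14 for Nup210 shRNA (95% interval -0.24 to -0.037, limma adjusted p = 0.0945) and -0.14 for Mef2c shRNA (-0.24 to -0.039, adjusted p = 0.075). The first passed in the unequal-variance test (0.0492), with dim genes left out (0.0417), with a trended and robust prior (0.034) and with the replicate block (0.0377). The second passed with median centring (0.034), with dim genes left out (0.0333), with the trended and robust prior (0.0262) and with the replicate block (0.0297). It passed also without Mef2c shRNA array 2 or 5 (0.0382 and 0.0451). Between the shRNA groups the difference was 0.0014 (adjusted p = 0.991).

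**Figure D1:**
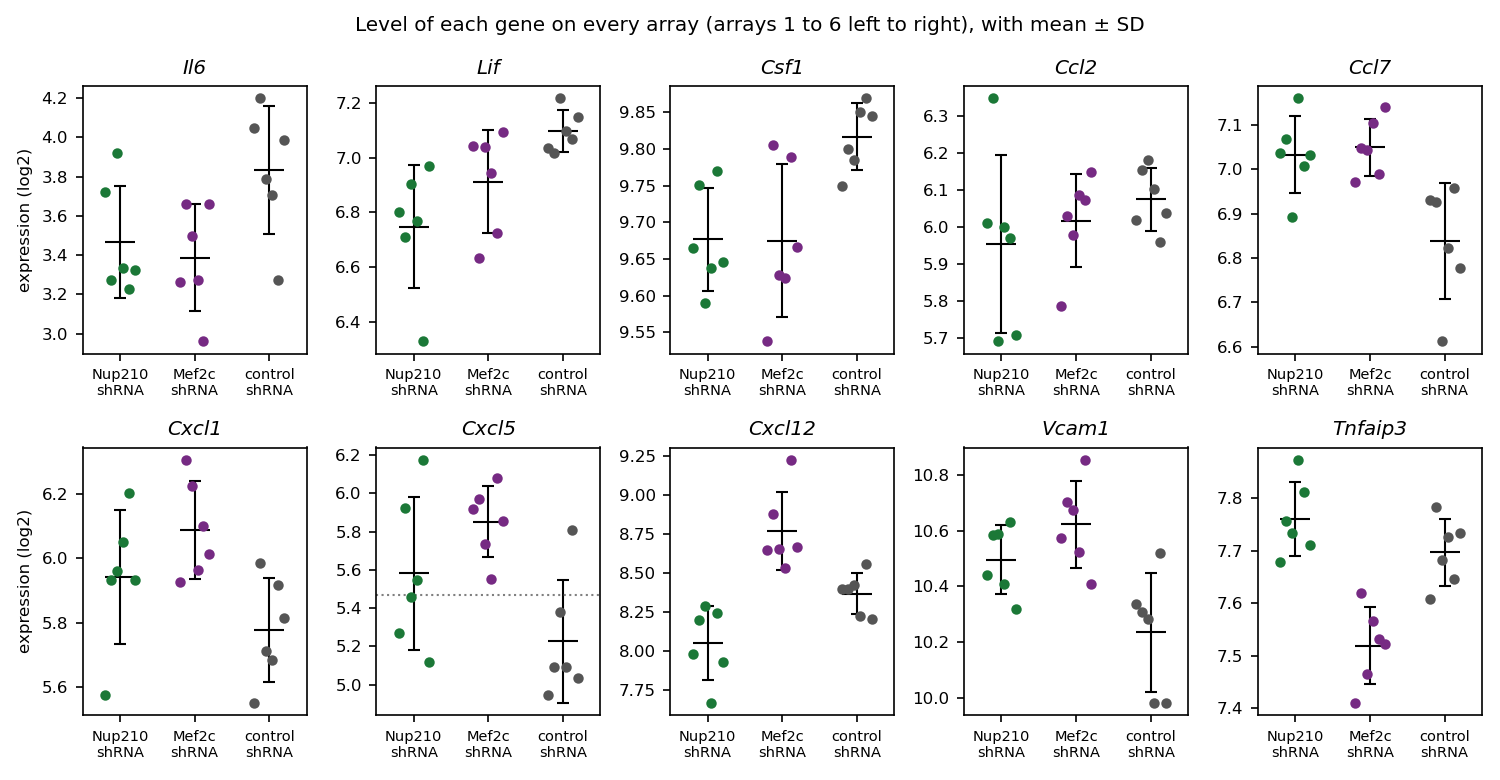
Expression (log2, vertical axis, a separate scale per panel) of the 10 genes on every array, with Nup210 shRNA, Mef2c shRNA and control shRNA from left to right; points are arrays 1 to 6, bars are the mean ± SD, and the dotted line in the Cxcl5 panel is the background guide of 5.47. Lif in Nup210 shRNA arrays lies wholly below control, Ccl7 in Mef2c shRNA arrays wholly above control, and the shRNA groups do not overlap for Cxcl12 and Tnfaip3.

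Of the monocyte chemokines, Ccl7 rose in both shRNA groups while its neighbour Ccl2 passed no test. Ccl7 ran from 6.89 over a median of 7.03 to 7.16 in Nup210 shRNA arrays, from 6.97 over 7.05 to 7.14 in Mef2c shRNA arrays and from 6.61 over 6.87 to 6.96 in control arrays. In Nup210 shRNA cells 5 of 6 arrays lay above the highest control array, and in Mef2c shRNA cells all 6 did, as 7.74% of all genes did in 1 direction or the other. Its level was 1.15-fold that of control with Nup210 shRNA (log2 difference 0.20, SE 0.059, limma adjusted p = 0.0465) and 1.16-fold with Mef2c shRNA (0.21, SE 0.059, adjusted p = 0.0242). The first call was lost without any 1 of 13 of the 18 arrays (adjusted p from 0.0514 to 0.11), with the highest value when Nup210 shRNA array 4 was left out. The second was lost without Mef2c shRNA array 4 or 6 or control array 3 or 6 (0.0507 to 0.0564). Both comparisons use the same control arrays, whose lowest value for Ccl7 was that of array 3.

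Ccl2 ran from 5.69 over a median of 5.99 to 6.35 in Nup210 shRNA arrays, from 5.79 over 6.05 to 6.15 in Mef2c shRNA arrays and from 5.96 over 6.07 to 6.18 in control arrays, so the groups overlapped throughout. Its differences from control were -0.12 (95% interval -0.31 to 0.071, limma adjusted p = 0.514) and -0.06 (-0.25 to 0.13, adjusted p = 0.773). In the RefSeq gene order Ccl2, Ccl7 and Ccl11 follow each other. Ccl11, the eosinophil attractant eotaxin, rose beside Ccl7, by 0.25 with Nup210 shRNA (adjusted p = 0.0269) and by 0.27 with Mef2c shRNA (adjusted p = 0.0127). The call of Ccl11 for Nup210 shRNA ended without any 1 of its arrays 2, 5 and 6 and control arrays 4, 5 and 6 (0.0522 to 0.0621) and with median centring (0.0623). Its call for Mef2c shRNA ended in the unequal-variance test (0.0663).

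The neutrophil chemokines Cxcl1 and Cxcl5, both dim, rose with Mef2c shRNA. Cxcl1 ran from 5.57 over a median of 5.95 to 6.20 in Nup210 shRNA arrays, from 5.93 over 6.06 to 6.31 in Mef2c shRNA arrays and from 5.55 over 5.76 to 5.99 in control arrays. In Mef2c shRNA cells 4 of 6 arrays lay above the highest control array and all 6 above the control mean. The level was 1.24-fold that of control (log2 difference 0.31, SE 0.096, limma adjusted p = 0.0444), and the call ended without any 1 of 11 arrays, the highest adjusted p being 0.107 without control array 1. With Nup210 shRNA the difference of Cxcl1 was 0.17 (adjusted p = 0.37).

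Cxcl5 sat at the edge of detection: 3 of 6 Nup210 shRNA arrays, 6 of 6 Mef2c shRNA arrays and 1 of 6 control arrays exceeded the background guide. It ran from 5.12 over a median of 5.50 to 6.18 in Nup210 shRNA arrays, from 5.55 over 5.89 to 6.08 in Mef2c shRNA arrays and from 4.95 over 5.09 to 5.81 in control arrays. The highest of each group was array 5, and the highest control array overlapped both shRNA groups. With Mef2c shRNA the log2 difference as measured was 0.63 (SE 0.17, limma adjusted p = 0.0208), against control arrays whose mean of 5.23 lay below the background guide. Each control array was then set at the guide or at its own level, whichever was higher. With this floor the mean level with Mef2c shRNA was 1.25-fold that of control, an estimate without an interval. Leaving out Mef2c shRNA array 5 or control array 1 or 6 ended the call (0.0505 to 0.0528). With Nup210 shRNA the difference was 0.36 (95% interval 0.0028 to 0.71, adjusted p = 0.242). The 2 shRNA groups differed by -0.27 (adjusted p = 0.377), so a difference between the shRNAs was not shown.

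Cxcl12, which guides Cxcr4-bearing precursor cells, separated the 2 shRNA groups more than any other of the 10 genes. It ran from 7.67 over a median of 8.09 to 8.29 in Nup210 shRNA arrays, from 8.54 over 8.66 to 9.23 in Mef2c shRNA arrays and from 8.21 over 8.40 to 8.56 in control arrays. All 6 Nup210 shRNA arrays lay below all 6 Mef2c shRNA arrays, as 8.62% of genes were wholly separated between these groups, and the control arrays lay between and overlapped each. The level with Nup210 shRNA was 0.608-fold that with Mef2c shRNA (log2 difference -0.72, SE 0.12, 95% interval -0.96 to -0.47, limma adjusted p = 0.000255), which ranked 82 among all genes by size. This call held in all 30 other settings tried, with adjusted p from 1.86e-05 to 0.00913. Against control, Cxcl12 was 1.32-fold higher with Mef2c shRNA (0.40, SE 0.12, adjusted p = 0.0321). That call ended when Mef2c shRNA array 2 or 5 or control array 1, 2, 4 or 6 was left out (0.0502 to 0.0759). With Nup210 shRNA the difference from control was -0.32 (95% interval -0.56 to -0.071, adjusted p = 0.115). That difference passed with the replicate block (adjusted p = 0.0118), although the replicate numbers were not taken as pairs.

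Vcam1, a surface ligand of alpha4 integrins known to act in myoblast fusion, rose with Mef2c shRNA. It ran from 10.32 over a median of 10.51 to 10.63 in Nup210 shRNA arrays, from 10.41 over 10.63 to 10.86 in Mef2c shRNA arrays and from 9.98 over 10.29 to 10.52 in control arrays. In Mef2c shRNA cells 5 of 6 arrays, and in Nup210 shRNA cells 3 of 6, lay above the highest control array, which was array 5. The level was 1.31-fold that of control with Mef2c shRNA (log2 difference 0.39, SE 0.093, limma adjusted p = 0.00984), and no single array decided this call. Control arrays 4 and 6, both near 9.98, were the lowest of all 18, and without the pair the adjusted p was 0.0817, while the unequal-variance test gave 0.0528. With Nup210 shRNA the difference of Vcam1 was 0.26 (95% interval 0.065 to 0.46, adjusted p = 0.103), and without control array 5 it passed the test (adjusted p = 0.0374). It passed also with the replicate block (adjusted p = 0.00232), although the replicate numbers were not taken as pairs. The shRNA groups differed by -0.13 (adjusted p = 0.464).

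Tnfaip3, the NF-kB brake, fell with Mef2c shRNA and passed no test with Nup210 shRNA against control, and the difference between the shRNAs passed the test. It ran from 7.68 over a median of 7.74 to 7.87 in Nup210 shRNA arrays, from 7.41 over 7.53 to 7.62 in Mef2c shRNA arrays and from 7.61 over 7.70 to 7.78 in control arrays. The Nup210 shRNA arrays all lay above the Mef2c shRNA arrays, where 8.62% of all genes were wholly separated in either direction. They overlapped control, and 5 of 6 Mef2c shRNA arrays lay below the lowest control array. Its level was 1.18-fold higher with Nup210 shRNA than with Mef2c shRNA (log2 difference 0.24, SE 0.046, 95% interval 0.14 to 0.34, limma adjusted p = 0.00111), and this call held in all 30 other settings (0.000293 to 0.0363). With Mef2c shRNA it was 0.884-fold that of control (-0.18, SE 0.046, adjusted p = 0.0161), a call that no single array decided but that ended without control arrays 4 and 6 (0.0934). With Nup210 shRNA the difference from control was 0.06 (95% interval -0.033 to 0.16, adjusted p = 0.492).

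**Figure D2:**
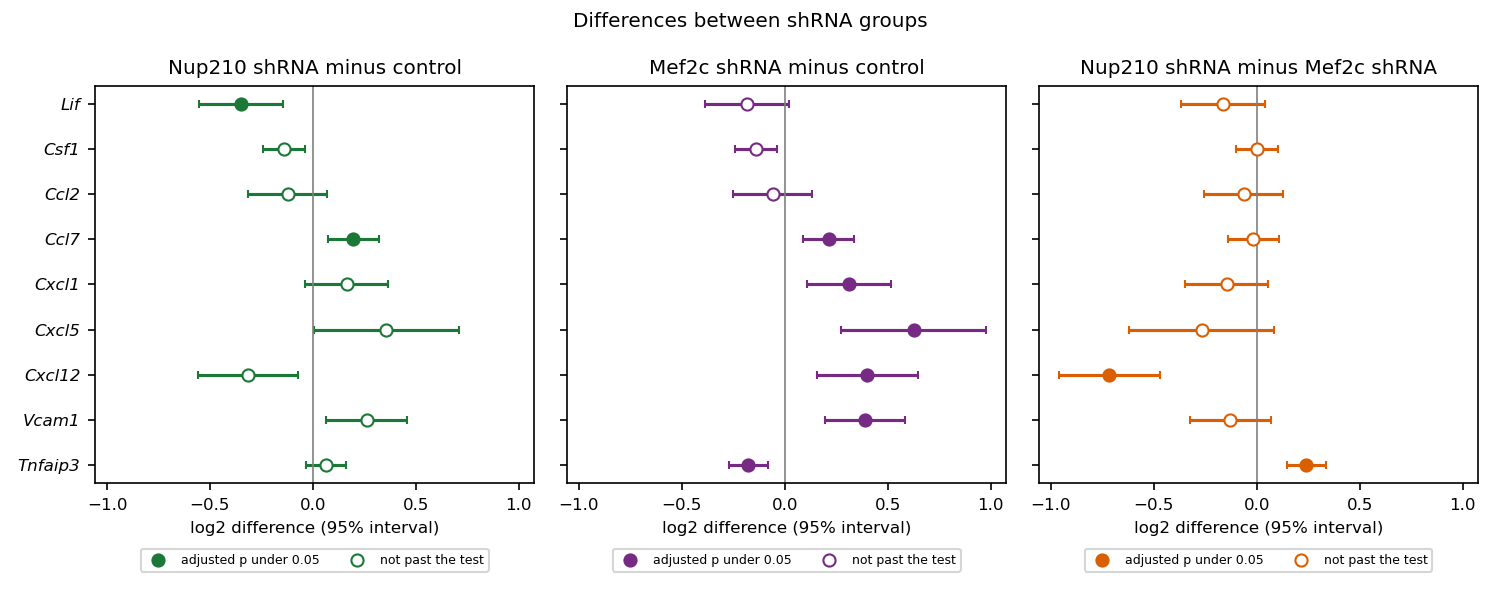
Differences between shRNA groups on the log2 scale (horizontal axis) for the 9 genes above background, with 95% intervals from limma; filled points passed the test at an adjusted p under 0.05. Lif and Ccl7 pass for Nup210 shRNA against control, 6 genes pass for Mef2c shRNA against control, and Cxcl12 and Tnfaip3 pass between the shRNAs, in opposite directions.

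Counted over the 10 genes, Nup210 shRNA gave 1 higher and 1 lower against control, where 8.16% of all genes tested were called (3.05% higher and 5.11% lower). Their median log2 difference was -0.03, beside 0.02 over all genes. Mef2c shRNA gave 5 higher and 1 lower against control, where 10.8% of all genes were called (4.34% higher and 6.42% lower), and the medians were 0.08 for the 10 genes and 0.02 for all genes. With Nup210 shRNA against Mef2c shRNA 1 gene was higher and 1 lower, where 14% of all genes were called (7.1% higher and 6.93% lower), with medians of -0.10 and -0.0035. At an unadjusted p under 0.05, the counts were 7, 8 and 2 of the 10 genes in these 3 comparisons, where 20.2%, 23% and 24.3% of all genes had such a p. Of the 10 genes 9 lay above background, but only 58.7% of all genes did. In a fit of the 13017 genes above background alone, 2362, 3018 and 3632 genes were called in these 3 comparisons. Of the 9 kept in that fit 3, 7 and 2 were called. The 10 genes were chosen with earlier results of these data known. The 2 comparisons with control share their control arrays. Without control arrays 4 and 6 both calls for Nup210 shRNA ended (limma adjusted p 0.118 and 0.181), as did all 6 for Mef2c shRNA (0.0817 to 0.18). Without Nup210 shRNA arrays 2, 4 and 5 both calls for Nup210 shRNA against control ended (0.339 and 0.373). An unequal-variance test per gene ended the calls of Lif and Ccl7 with Nup210 shRNA (adjusted p 0.108 and 0.128) and those of Ccl7, Cxcl1, Cxcl12 and Vcam1 with Mef2c shRNA (0.0528 to 0.0747). Centring each array on its median ended the calls of Ccl7 in both comparisons and of Cxcl1 with Mef2c shRNA (0.0556 to 0.0773). The call of Ccl7 with Nup210 shRNA ended also with array weights (0.0618) and in a fit of those 2 groups alone (0.102), and that of Cxcl1 with renewed quantile normalization (0.0568).

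Some markers of the muscle lineage passed the test in the same comparisons. With Nup210 shRNA 0 of 12 myotube markers were higher and 4 lower than in control, and 2 of 9 myoblast or reserve cell markers were higher and 1 lower. With Mef2c shRNA 0 and 2 of the myotube markers, and 1 and 2 of the myoblast or reserve cell markers, were higher and lower. With Nup210 shRNA against Mef2c shRNA 3 myotube markers were higher and 5 lower, and 4 and 1 of the others. Over all genes, of which 58.7% lay above background, 8.16%, 10.8% and 14% were called in these 3 comparisons. The part of these markers in the results for the 10 genes was not tested.

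Across arrays of the same group, Cxcl12 and Vcam1 went up and down together. Over the 18 deviations from the group means Pearson's r was 0.779 (permutation p = 3e-05 within groups, 0.00135 after Benjamini-Hochberg adjustment over the 45 pairs of the 10 genes) and Spearman's rho was 0.856 (permutation p = 5e-05, adjusted 0.00225). Without the 2 arrays farthest from the median of Cxcl12, r was 0.813. Within the groups r was 0.817 over the Nup210 shRNA arrays, 0.821 over the Mef2c shRNA arrays and 0.987 over the control arrays. No other pair passed the adjusted threshold, and the next by size was Lif with Csf1, at r = -0.727 (adjusted permutation p = 0.0783). Between the shRNA groups, Cxcl12 was lower with Nup210 shRNA than with Mef2c shRNA, while a difference in Vcam1 was not shown. Array 5 held the highest Vcam1 and Cxcl5 in each of the 3 groups and the highest Cxcl12 of the Mef2c shRNA and control groups, and it held the lowest Il6 of each group. For both Cxcl12 and Vcam1, arrays 2 and 5 lay above the group mean in all 3 groups, and arrays 4 and 6 in none. The permutations shuffled the arrays of each group separately, so the p-values do not allow for such sharing and may be too small. Arrays may share culture, labelling or scanning, so these values describe arrays and say nothing of shared control.

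**Figure D3:**
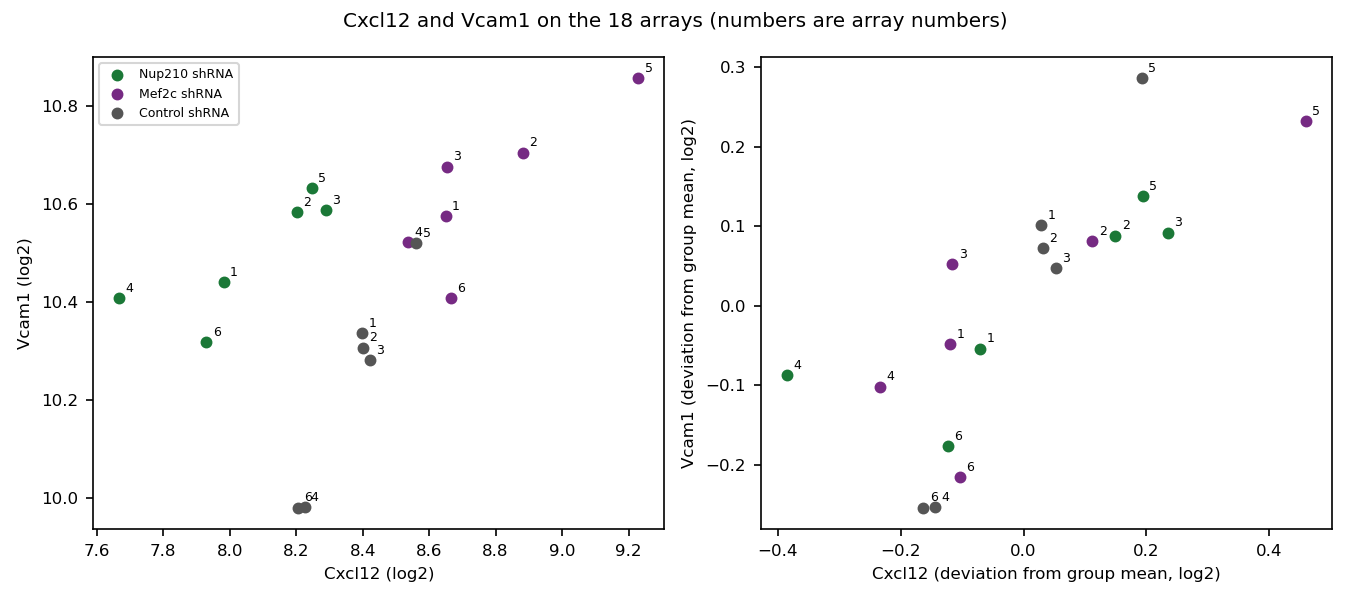
Vcam1 (vertical axis) against Cxcl12 (horizontal axis) on the 18 arrays, as log2 levels on the left and as log2 deviations from each group's mean on the right, with colours for the groups and array numbers beside the points. The groups are shifted along the Cxcl12 axis on the left, and on the right the deviations rise together with r = 0.779.

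The genes whose deviations from the group means were most like those of each gene, among 11963 candidates above background and over the same 18 arrays, were found by Pearson's r and are given as a description. Cxcl12 was most like Fgf7 (0.921), a fibroblast growth factor, and Plpp3 (0.905), a lipid phosphatase. Vcam1 was most like Thsd7a (0.921) and Mmp2 (0.912), a gelatinase. Lif was closest to Cpe (0.942), a carboxypeptidase, and Pdlim2 (0.937), and Csf1 to Fndc1 (0.888) and Setd1b (0.859). Cxcl5 was closest to the transcription factor genes Tshz3 (0.908) and Eya1 (0.878). The remaining 4 had weaker neighbours: Cxcl1 with Dhx16 (0.823) and Pygb (0.821), Tnfaip3 with Phf1 (0.826) and Fcna (0.826), Ccl7 with Sf3b5 (0.792) and Ppid (0.757), and Ccl2 with Aprt (0.782) and Dcaf1 (0.777).

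Around Tnfaip3, most genes of NF-kB signalling passed no test, and most of those that did were lower with Nup210 shRNA. Of 38 measured genes 1 was higher and 6 were lower than in control, with a median log2 difference of -0.05. Of these 38 genes 36 lay above background, as did 58.7% of all genes. Over all genes tested 3.05% were higher and 5.11% lower in this comparison. For Mef2c shRNA against control those shares were 4.34% and 6.42%, and for Nup210 against Mef2c shRNA 7.1% and 6.93%. The 4 largest were the receptor adaptor Traf5 (-0.32, limma adjusted p = 0.00255), the TNF receptor Tnfrsf1b (-0.28, adjusted p = 0.00765), the subunit Rel (-0.27, adjusted p = 0.00168) and the kinase adaptor Tab2 (-0.22, adjusted p = 0.00194). Tnfrsf1b and Rel no longer passed without Nup210 shRNA arrays 2, 4 and 5 (0.0779 and 0.0535). With Mef2c shRNA 3 were higher and 0 lower, at a median of 0.05: Tab1 (0.21, adjusted p = 0.00343), the inhibitor Nfkbia (0.21, adjusted p = 0.0241) and the subunit Nfkb2 (0.13, adjusted p = 0.0394). Nfkbia ended without Mef2c shRNA array 1 or 5 or control array 4 or 6 (0.0524 to 0.0632), and Nfkb2 without any 1 of 10 arrays (up to 0.093). In the direct contrast of Nup210 with Mef2c shRNA 0 were higher and 9 lower, at a median of -0.08. The 4 largest of these were Tnfrsf1b (-0.36, adjusted p = 0.000384), the adaptor Myd88 (-0.34, adjusted p = 0.0247), the receptor Tlr2 (-0.28, adjusted p = 0.0123) and Nfkbia (-0.27, adjusted p = 0.00306). Leaving out any 1 of Nup210 shRNA arrays 2 and 4 and Mef2c shRNA arrays 2, 5 and 6 ended the call of Myd88 (0.0561 to 0.0622).

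Known NF-kB targets moved in both directions. They stand beside shares of 8.16%, 10.8% and 14% called over all genes in the 3 comparisons, in the order below. Of 36 measured, of which 20 lay above background, 0 were higher and 2 lower with Nup210 shRNA against control (median 0.07): the survival genes Ier3 (-0.48, limma adjusted p = 0.00107) and Cflar (-0.17, adjusted p = 0.0107). With Mef2c shRNA 2 were higher and 5 lower (median 0.05), and the higher ones, Nfkbia and Nfkb2, stand in the signalling list as well. The largest falls were the stress gene Gadd45b (-0.55, adjusted p = 3.94e-05), the prostaglandin synthase Ptgs2 (-0.44, adjusted p = 0.00157), Ier3 (-0.33, adjusted p = 0.0135) and the hyaluronan receptor Cd44 (-0.33, adjusted p = 0.00279). The direct contrast of Nup210 with Mef2c shRNA had 3 higher and 3 lower (median 0.02), led by Ptgs2 (0.60, adjusted p = 5.15e-05), Cd44 (0.49, adjusted p = 4.65e-05), Gadd45b (0.34, adjusted p = 0.00229) and the membrane-bound chemokine Cxcl16 (-0.28, adjusted p = 0.00779).

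**Figure D4:**
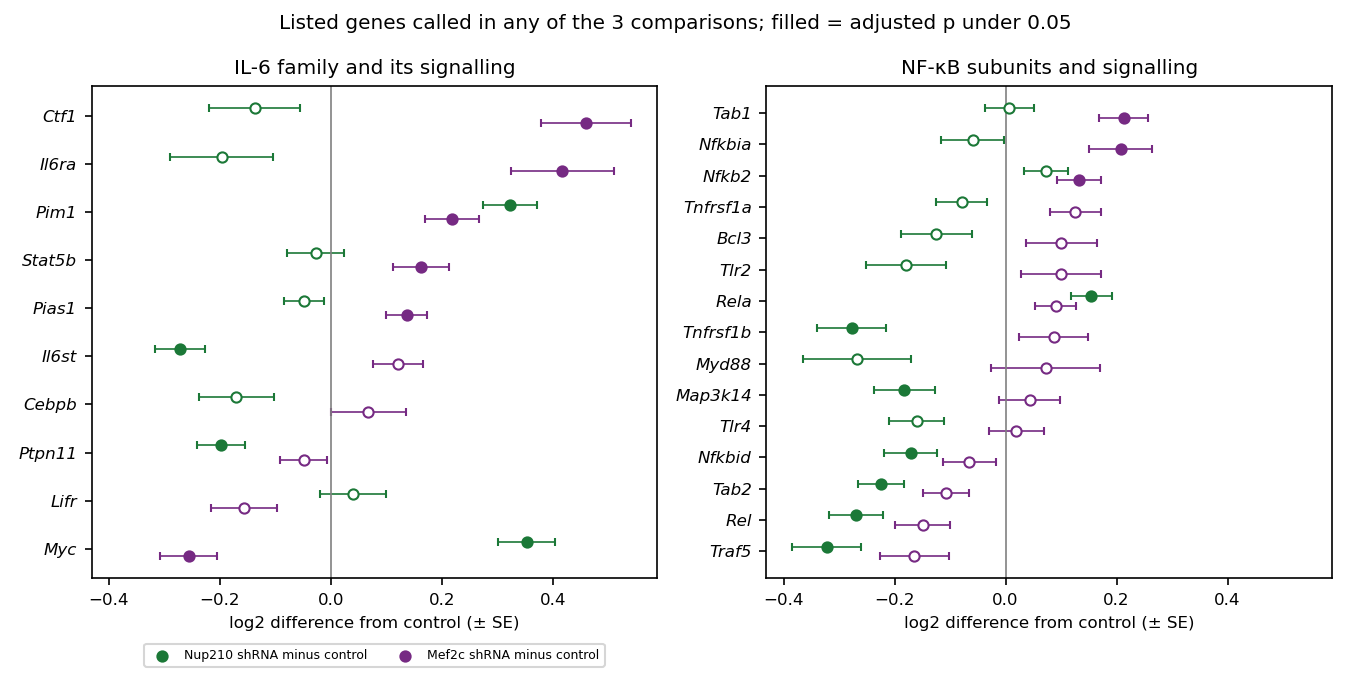
Log2 difference from control (horizontal axis, ± SE from limma) of the genes of the IL-6 family and its signalling (left) and of NF-kB subunits and signalling (right) that passed the test in any of the 3 comparisons, in green for Nup210 shRNA and purple for Mef2c shRNA; filled points passed against control. Ctf1 and Il6ra lie at 0.46 and 0.42 with Mef2c shRNA, and Myc lies at 0.35 with Nup210 shRNA and at -0.26 with Mef2c shRNA.

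Genes that share receptors or signal transduction with Il6 and Lif moved in both directions. Over all genes 8.16%, 10.8% and 14% were called in the 3 comparisons, in the order below. Of the 27 measured genes of this list 26 lay above background, as did 58.7% of all genes. Of 27 measured, 2 were higher and 2 lower with Nup210 shRNA against control (median 0.04): the targets Myc (0.35, limma adjusted p = 0.000226) and Pim1 (0.32, adjusted p = 0.000344), the shared chain Il6st (-0.27, adjusted p = 0.000815) and the phosphatase Ptpn11 (-0.20, adjusted p = 0.00607). Pim1 has other probe sets, and averaged over all of them it did not pass (adjusted p = 0.0733). With Mef2c shRNA 5 were higher and 1 lower (median 0.07), led by the cytokine Ctf1 (0.46, adjusted p = 0.000904), the receptor Il6ra (0.42, adjusted p = 0.00573), Myc (-0.26, adjusted p = 0.00251) and Pim1 (0.22, adjusted p = 0.00607). Between Nup210 and Mef2c shRNA 2 were higher and 7 lower (median 0.04), led by Il6ra (-0.61, adjusted p = 0.000127), Myc (0.61, adjusted p = 2.45e-07), Ctf1 (-0.60, adjusted p = 4.74e-05) and Il6st (-0.39, adjusted p = 8.54e-06).

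Receptors for the 10 genes were measured in the same cells, in a list that also held Il34, which is not a receptor. Of the 16 genes of this list 10 lay above background. Against control 0 were higher and 1 lower with Nup210 shRNA, which was Il6st, and 2 were higher and 0 lower with Mef2c shRNA, which were Il6ra and the Cxcl12 receptor Cxcr4 (0.22, limma adjusted p = 0.015). The medians were 0.04 and 0.08. Between Nup210 and Mef2c shRNA 1 was higher and 2 lower (median -0.04), the higher one being the Lif receptor Lifr (0.20, adjusted p = 0.0339), whose call ended without any 1 of Nup210 shRNA arrays 1, 2 and 5 and Mef2c shRNA arrays 3, 4 and 6 (0.0545 to 0.084). Of all 22 chemokine receptors 7 lay above background. In them 1 was higher with Nup210 shRNA against control (Xcr1, itself below background, 0.30, adjusted p = 0.0441, lost without any 1 of 11 arrays at up to 0.109), and 2 were higher with Mef2c shRNA (Cxcr4 and Ackr4, the second below background). Nup210 shRNA against Mef2c shRNA gave 0 higher and 1 lower, Ackr4. The medians over the 22 were 0.12, 0.07 and -0.02. For both lists, the shares called over all genes in these 3 comparisons were 8.16%, 10.8% and 14%.

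Of 31 other chemokines measured, 15 lay above background. With Nup210 shRNA 1 was higher and 2 were lower than in control (median 0.05), where 8.16% of all genes were called. The falls were Ccl17, a chemokine for T cells that averaged 5.33 in Nup210 shRNA arrays and 6.17 in control arrays (-0.83 as measured, limma adjusted p = 6.77e-05), and the membrane-tethered Cx3cl1 (-0.31, adjusted p = 0.000564). The mean of Ccl17 in Nup210 shRNA arrays lay below the background guide, which 1 of these 6 arrays exceeded. Each Nup210 shRNA array was then set at the guide or at its own level, whichever was higher. With this floor Ccl17 was 1.61-fold lower with Nup210 shRNA than in control, an estimate without an interval. Ccl11 was the higher one, and it was the single call with Mef2c shRNA (1 higher and 0 lower, median 0.08). In that comparison 10.8% of all genes were called. Nup210 shRNA against Mef2c shRNA gave 0 higher and 3 lower (median -0.0024), where 14% of all genes were called. These were Ccl17 (-0.52 as measured, limma adjusted p = 0.00206), Cx3cl1 (-0.36, adjusted p = 5.14e-05) and Cxcl16. With the same floor Ccl17 was 1.29-fold lower with Nup210 shRNA than with Mef2c shRNA, again without an interval.

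Of 33 other myokines measured, 27 lay above background. With Nup210 shRNA 4 were higher and 9 lower than in control (median -0.09), where 8.16% of all genes were called. The 4 largest were the alarmin Il33 (0.56, limma adjusted p = 0.00162), the growth factor Igf1 (0.51, adjusted p = 0.0102), Tgfb1 (-0.39, adjusted p = 0.000597) and Metrnl (-0.30, adjusted p = 0.0168). With Mef2c shRNA 4 were higher and 11 lower (median -0.09), where 10.8% of all genes were called. Igf2, a growth factor of differentiating myoblasts, fell most, to 7.63 in Mef2c shRNA arrays, against 9.06 in control arrays (-1.43, adjusted p = 4.77e-08). The activin gene Inhba (-0.60, adjusted p = 0.00285), Erfe, which encodes erythroferrone (-0.52, adjusted p = 5.47e-05), and Tgfb2 (-0.45, adjusted p = 0.00239) followed. Nup210 shRNA against Mef2c shRNA gave 7 higher and 4 lower (median 0.04), where 14% of all genes were called, led by Igf2 (1.50, adjusted p = 1.4e-08), Il33 (0.73, adjusted p = 5.54e-05), Apln (-0.47 as measured, adjusted p = 0.019, with 1 of 6 Nup210 shRNA arrays and 5 of 6 Mef2c shRNA arrays above background) and the activin antagonist follistatin, Fst (0.42, adjusted p = 8.24e-05).

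Of the integrins and other adhesion molecules set beside Vcam1, none passed the test as higher than control. Of 11 measured, 0 were called by limma with Nup210 shRNA against control (median 0.01), where 8.16% of all genes were called. At an unadjusted p under 0.05 there were 2, where 20.2% of all genes had such a p. With Mef2c shRNA against control, where 10.8% of all genes were called, 0 were higher and 2 lower (median 0.0038). These were Jam2 (-0.54, limma adjusted p = 5.84e-05), a junctional molecule, and the muscle cadherin Cdh15 (-0.33, adjusted p = 6.23e-05). Between Nup210 and Mef2c shRNA, where 14% of all genes were called, 2 were higher and 1 lower (median 0.05). They were Jam2 (0.40, adjusted p = 0.000601), Cdh15 (0.24, adjusted p = 0.000631) and the integrin chain Itga9 (-0.16, adjusted p = 0.0492). The call of Itga9 was lost without any 1 of 15 arrays (up to 0.119).

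Across the lists, leaving out control arrays 4 and 6 ended the calls against control of Cflar, Ccl11, Xcr1 and Igf1 with Nup210 shRNA (adjusted p from 0.0752 to 0.205) and of Nfkbia, Nfkb2, Ier3, Ccl11, Ackr4, Cxcr4 and Pim1 with Mef2c shRNA (0.0547 to 0.206). Leaving out Nup210 shRNA arrays 2, 4 and 5 ended those of Tnfrsf1b, Rel, Cflar, Ccl11, Xcr1, Ptpn11, Igf1 and Metrnl against control (0.0535 to 0.42). In the direct contrast of the shRNAs it ended those of Myd88, Tlr2, Cxcl16, Ccl17, Apln, Lifr and Itga9 (0.053 to 0.24). The unequal-variance test ended the calls of Xcr1, Il33, Igf1 and Metrnl with Nup210 shRNA against control (0.0508 to 0.0965), of Ackr4 and Ccl11 with Mef2c shRNA (0.0538 and 0.0663) and of Myd88, Tlr2, Cxcl16, Apln, Lifr and Itga9 between the shRNAs (0.0519 to 0.104). Median centring ended those of Ccl11 and Xcr1 with Nup210 shRNA (0.0623 and 0.0645), of Nfkb2 with Mef2c shRNA (0.107) and of Itga9 between the shRNAs (0.104).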

How the data were processed

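Expression was measured on 18 one-colour arrays, and the titles of the samples give 6 to each shRNA. The values the authors deposited are log2 expression values per probe set, made with RMA and Partek per the submitters' processing notes. Their versions and settings, the genome build and scan dates are not given in the sources; without these no batch could be tested. RMA equalizes the distributions of arrays and shrinks differences between dim values. Array medians ran from 5.48 to 5.57, arrays of 1 group correlated at 0.991 to 0.995, and 6 arrays per group limit the precision (median SE of a log2 difference 0.080).

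Of 41345 probe sets, 23521 had 1 gene symbol in the platform annotation, 1814 several and 16010 none, and 23328 of the first matched the RefSeq table of GRCm38.p6 by Entrez identifier. The brightest probe set stood for each of 22180 genes. The 18 arrays were fitted together with limma 3.58.1 in R 4.3.3, with 1 mean per group (15 residual degrees of freedom). Adjusted p-values are Benjamini-Hochberg over all 22180 genes for 3 contrasts, with calls at under 0.05. The fit was tested on simulated data. Correlations used deviations from group means and 100000 permutations within groups. The 10 genes, the lists of related genes and the alternatives were chosen with earlier results of these data known. Named were the 10 genes, up to the 4 largest called genes per list and comparison, and the 2 genes of highest correlation with each gene above background. Promoter sequences are from RefSeq, GRCm38.p6. The alternatives were array weights, a trended robust prior, an unequal-variance test per gene, a threshold of 0.01, a block for the replicate number, fits of 2 groups alone, median centring, quantile normalization once more, the mean of all probe sets, no dim genes, and leaving out each array, Nup210 shRNA arrays 2, 4 and 5, or control arrays 4 and 6.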

Additional observations from a re-analysis of the deposited data

Results flagged for a closer look

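Among 36 sets of 6 arrays (the 10 genes and both targeted genes in each group), 2 held an array that stood apart by Dixon's criterion, which chance alone meets in about 1 set of 20. Neither was in the 10 genes. Nup210 in control array 6 was at 5.57, against 5.75 to 5.81 in the other 5 control arrays. Mef2c in Mef2c shRNA array 5 was at 7.51, against 7.88 to 8.08 in the other 5 arrays of that group.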

How the results depend on the processing

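Of 897 recomputed differences of the 10 genes, 796 kept their direction and side of the threshold, 72 lost the call, 16 gained one and 13 turned direction; of 1826 for other named genes, 1696 kept both and 130 lost the call. For Nup210 shRNA against control, the count of 2 called genes became 1 with only the 2 groups compared, median centring, array weights or the unequal-variance test, 3 with dim genes left out or a trended prior, 0 at a threshold of 0.01, 0 without Nup210 shRNA arrays 2, 4 and 5, 0 without control arrays 4 and 6, and 0 to 3 without single arrays. For Mef2c shRNA against control, 6 became 7 with dim genes left out or a trended prior, 2 with the unequal-variance test, 1 at a threshold of 0.01, 0 without control arrays 4 and 6, and 2 to 7 without single arrays. Between Nup210 and Mef2c shRNA the count stayed at 2 to 3. Turned directions were all among uncalled differences between Nup210 and Mef2c shRNA. Csf1, at 0.0014, became -0.0089 with renewed quantile normalization, -0.00078 with array weights, -0.041 without 3 Nup210 shRNA arrays and -0.026 to 0.028 without single arrays. Without single arrays Il6 ran from -0.0096 to 0.14 and Ccl7 from -0.042 to 0.011. Il6 has no value with dim genes left out. The replicate numbers were not taken as pairs: 12 of 18 same-numbered pairs correlated above 0.1 (median 0.18, against -0.030 for different numbers), and 9 arrays matched their own number best in both other groups. With the replicate block 5 of the 10 genes were called for Nup210 shRNA against control (2 higher, 3 lower), with Vcam1 (adjusted p = 0.00232), Cxcl12 (0.0118) and Csf1 (0.0377) gained, and 8 for Mef2c shRNA against control (5 higher, 3 lower), with Csf1 and the dim Il6 gained (both 0.0297). The block ended the calls of Ccl11 with Nup210 shRNA (0.0567) and of Itga9 between the shRNAs (0.0546). Over all genes, calls for Nup210 shRNA against control were 1809, against 904 at 0.01, 563 without 3 Nup210 shRNA arrays and 1103 without 2 control arrays. For Mef2c shRNA against control they were 2386, against 1302 and, without 2 control arrays, 1420. Between Nup210 and Mef2c shRNA they were 3113, against 1899 at 0.01. Fewer arrays and the stricter threshold are smaller tests by construction; for the other settings the cause was not tested. Signal over background limits Il6 and Cxcl5.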
